A study of Mus musculus with 6 samples.

Results

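The genes described here encode the enzymes and carriers that bring pyruvate into mitochondria, turn the tricarboxylic acid (TCA) cycle and carry malate, aspartate, citrate and glycerol phosphate equivalents between mitochondria and cytosol. They were picked by gene symbol around *Fh1*, with earlier results of these data known. All 35 symbols were found among the 13535 genes of the expression table. RNA was sequenced from beta-cells sorted by flow cytometry out of mouse cell clusters, with 3 libraries from pseudo-islets and 3 from pseudo-beta. Pseudo-islets were reaggregated alpha-, beta- and delta-cells, and pseudo-beta were reaggregated beta-cells alone. Both came from endocrine cells of wild-type (WT) C57BL/6JRj male mice aged 12 weeks, were kept in RPMI 1640 medium with fetal bovine serum and antibiotics for 5 days, and had no other treatment named in the labels. The labels number the experiments 35, 36 and 37, each with 1 library of either kind, and whether the cells of an experiment were pooled from several animals is not given in the sources used here. The values are the authors' normalized counts, which summed to between 17994346 and 19635287 per library, and the comparison asked how beta-cells that had been cultured with the other endocrine cells differed from those cultured alone.

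In beta-cells, glucose carbon enters mitochondria as pyruvate, which is either oxidised to acetyl-CoA by the pyruvate dehydrogenase complex or carboxylated to oxaloacetate by pyruvate carboxylase. Turning of the TCA cycle supplies reduced cofactors to the respiratory chain, and the ATP made there closes potassium channels and starts insulin secretion. Because beta-cells export little lactate, the malate-aspartate and glycerol phosphate shuttles reoxidise the NADH of glycolysis, while citrate, isocitrate and malate that leave mitochondria can yield cytosolic NADPH.

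*Fh1*, which encodes fumarate hydratase, the enzyme that adds water to fumarate to make malate, showed the widest separation of the groups among the 35 genes when differences were set against their standard errors. In the pseudo-islet libraries of experiments 35, 36 and 37 it stood at 3650.9, 3606.6 and 4306.5 normalized counts, against 1536.0, 1579.2 and 2301.9 in the matching pseudo-beta libraries. Every pseudo-islet library therefore lay above every pseudo-beta library, and experiment 37 was highest in both groups. The means were 3854.7 ± 391.9 and 1805.7 ± 430.3 (SD, n = 3), and the level in pseudo-islets was 2.38-, 2.28- and 1.87-fold that in pseudo-beta in experiments 35, 36 and 37. On the log2 scale, after adding 1 to each value, the difference was 1.11, or 2.16-fold. With the experiment number as a replicate block its standard error was 0.10, the 95% interval ran from 1.87- to 2.51-fold, and the adjusted p over all genes was 0.000402 (limma, Benjamini-Hochberg). *Fh1* thus rose in this fit, where it ranked 6 of 13535 genes by p. Without the block the standard error was 0.17, the interval 1.66- to 2.83-fold, the rank 10 and the adjusted p 0.0905, which misses the threshold of 0.05. Whether it passed without the block depended on the pseudo-beta library of experiment 37, since leaving that library out gave a log2 difference of 1.30 and an adjusted p of 0.00818. The call with the block depended on how the variance was estimated, since a prior variance that ignores expression level gave an adjusted p of 0.464 with the block and 0.470 without it.

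*Fh1* (ENSMUSG00000026526) lies on the minus strand at chr1:175600374-175625635 of GRCm38. Its principal transcript has 10 exons over 2636 bases. The gene overlaps *Kmo* on the opposite strand. *Kmo* was not in the table, and whether the counting used strand is not given in the sources used here, so any reads from *Kmo* cannot be told apart from those of *Fh1*. No other annotated transcript of at least 200 aligned bases matched *Fh1* at 95% identity or more. The study's PCR primers for *Fh1* are shown because they place its PCR assay within the gene, on a coding stretch of 139 bases in exons 4 and 5:
Fh1 forward: agccagagctcgaatgacac
Fh1 reverse: tgatgacctgcgcaaactct
The forward primer spans the junction of exons 4 and 5, at bases 603 to 622 of the transcript, and the reverse primer lies in exon 5, at chr1:175612197-175612216.

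The 250 bases before a RefSeq start site are shown for *Fh1*, *Idh1* and *Mdh1*. *Idh1* and *Mdh1* are the other members with an unadjusted p under 0.05 without the block (limma). Against the GENCODE gene models used elsewhere, the *Mdh1* window lies wholly inside the gene and the *Idh1* window partly. The sequences are those of RefSeq on GRCm38.p6, read 5′ to 3′ along each gene's minus strand, and capitals mark the CCAAT box, a promoter motif, or its reverse complement ATTGG.
Fh1, chr1:175625636-175625885: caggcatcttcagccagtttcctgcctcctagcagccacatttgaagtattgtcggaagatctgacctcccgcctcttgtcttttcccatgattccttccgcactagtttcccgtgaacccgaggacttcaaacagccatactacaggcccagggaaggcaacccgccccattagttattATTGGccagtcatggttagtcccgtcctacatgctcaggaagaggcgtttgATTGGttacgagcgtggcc
Idh1, chr1:65186480-65186729: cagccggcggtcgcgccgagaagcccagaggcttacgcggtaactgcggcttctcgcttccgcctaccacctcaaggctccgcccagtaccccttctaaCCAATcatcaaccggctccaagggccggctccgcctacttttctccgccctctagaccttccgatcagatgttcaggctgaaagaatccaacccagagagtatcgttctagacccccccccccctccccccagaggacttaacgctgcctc
Mdh1, chr11:21571935-21572184: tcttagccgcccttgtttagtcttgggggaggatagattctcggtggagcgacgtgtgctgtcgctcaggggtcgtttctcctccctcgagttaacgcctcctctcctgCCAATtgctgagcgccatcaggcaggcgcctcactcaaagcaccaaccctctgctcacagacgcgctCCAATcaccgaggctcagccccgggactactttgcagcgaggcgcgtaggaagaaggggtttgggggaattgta
The *Fh1* window holds the motif in reverse orientation, starting 70 and 19 bases before the start, *Idh1* holds it 151 bases before, and *Mdh1* 141 and 74 bases before. A further RefSeq start of *Idh1* has none. RefSeq promoters were given for 34 of the 35 genes, *Idh3a* being the exception, with 45 start sites in all, and each window ran from 250 bases before to 50 bases after the start. On either strand, CCAAT was found in 57.8% of these 45 windows against 37.42% of 32841 windows of all genes, and the GC box GGGCGG in 62.2% against 35.67%. The cAMP response element TGACGTCA was found for *Mdh2* and *Ogdh* alone, in 8.9% of the 45 windows against 1.79% of all windows. Its shorter form TGACG, which it contains, was found for 14 of the 34 genes including *Fh1*. This shorter form was in 18 of the 45 windows, against 6836 of the 32841 windows of all genes (20.82%). The NRF1 element was found for *Dld* and *Sucla2*, in 4.4% of the 45 windows against 4.6% of all windows. The ERR element TNAAGGTCA was found for none of the 34 genes, against 1.28% of all windows. These are letter matches in the windows, not measured binding.

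**Figure D1:**
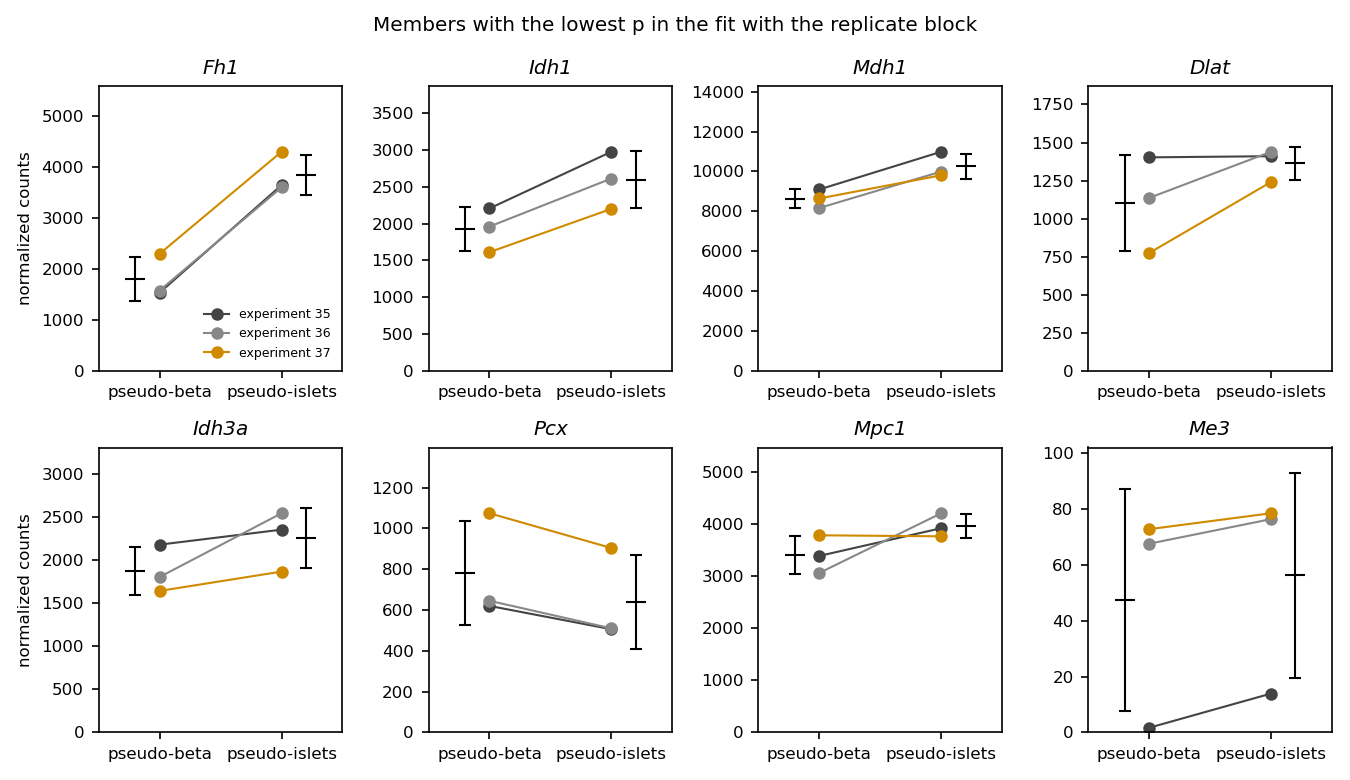
Normalized counts of the 8 members with the lowest p in the fit with the replicate block, in pseudo-beta (left) and pseudo-islets (right) of each panel, with a line joining the libraries of each experiment and bars giving the mean and SD of 3 libraries. The *Fh1* lines are nearly parallel and its groups do not overlap. The *Idh1* lines rise in all 3 experiments but its groups overlap, and *Pcx* slopes down in all 3 experiments.

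The sorted cells carried beta-cell RNA in all libraries, with all 10 beta-cell markers examined present in the table. RNA of other islet cells differed between the groups. *Gcg*, the glucagon gene of alpha-cells, was at 1762.9, 941.3 and 2094.3 normalized counts in the pseudo-islet libraries against 36.1, 14.1 and 0.0 in the pseudo-beta libraries. *Sst*, the somatostatin gene of delta-cells, was at 190.2, 146.4 and 210.2 against 0.0, 0.0 and 4.74. Of the other alpha-cell markers, *Irx1*, *Irx2* and *Loxl4* were not in the table. The 2 of 7 delta-cell markers in the table, *Sst* and *Rbp4*, summed to 368.6 to 531.5 against 249.5 to 272.6. *Rbp4* on its own stood at 197.9 to 341.3 against 244.7 to 272.6. Its groups overlapped, with a log2 difference of -0.05 without the block, so the gap in the sums was mainly that of *Sst*. The 2 of 4 PP-cell markers, *Ppy* and *Pyy*, summed to 658.1 to 5500.2 against 328.0 to 2481.8. *Ppy*, at 4172.0, 383.2 and 1790.5 against 1650.1, 218.7 and 731.0, and *Pyy*, at 1328.2, 274.9 and 660.6 against 831.8, 109.3 and 301.2, were each higher in pseudo-islets in 3 of 3 experiments, although the groups overlapped. The 2 of 4 ductal markers summed to 197.6 to 553.6 against 265.3 to 484.4, and of the 5 endothelial and 5 immune markers 1 each was in the table, at no more than 36.5 normalized counts. None of 6 acinar and none of 5 stromal markers was in the table. The part of these other cells in the *Fh1* difference was not tested. In bulk samples, fewer cells of a type and less RNA per cell cannot be told apart.

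Of the 35 genes, *Fh1* alone passed an adjusted p of 0.05 with the replicate block, where 0.436% of all genes were called higher in pseudo-islets and 0.103% lower. None passed without it, where 0.0591% of all genes were called, although 3 members had an unadjusted p under 0.05 and a higher level in pseudo-islets against 2.73% of all genes, and none a lower level against 2.67%. With the block, 6 members were higher in pseudo-islets at an unadjusted p under 0.05, or 17.1% of the 35 against 6.69% of all genes, namely *Fh1*, *Idh1*, *Mdh1*, *Dlat*, *Idh3a* and *Mpc1*. Lower at that level was *Pcx*, or 2.86% of the members against 5.22% of all genes. The groups did not overlap for *Fh1*, *Mdh1* and *Mdh2*, all higher in pseudo-islets, against 5.63% of all genes, and for no member in the other direction, against 5.13%. In all 3 experiments, 9 members were higher in pseudo-islets (25.7% against 18.0% of all genes) and 2 were lower (5.71% against 15.0%). The fitted difference was above 0 for 24 members and below 0 for 11, with a median log2 difference of 0.06 over the members and 0.01 over all genes. Libraries scaled with the 10 most abundant genes left out turned *Pdha1*, *Cs*, *Idh3b* and *Idh2* below 0, and gave medians of 0.00 and -0.05.

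Intervals bounded most of the other differences. With the block, the 95% interval of 27 of the 35 genes lay wholly within a 1.5-fold change in either direction, a share of 77.1% against 42.0% of all genes, and without it that of 22 genes (62.9% against 27.3%). The 8 genes whose interval reached past 1.5-fold with the block were *Fh1*, *Idh1*, *Dlat*, *Pdhx*, *Pdk1*, *Me3*, *Slc25a13* and *Slc25a10*. Of these, *Me3* and *Slc25a13* were the members with the lowest counts. These shares hold for the prior variance that follows expression, and were not computed for a prior without trend. With the block and no trend, the standard error was larger for most members. That of *Idh3a* was 0.15 rather than 0.10, and that of *Mdh2* 0.13 rather than 0.07. It was smaller for *Pcx*, at 0.12 rather than 0.13, and for *Slc25a10*, at 0.19 rather than 0.25. How far the expression level of the members sets their share was not tested.

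**Figure D2:**
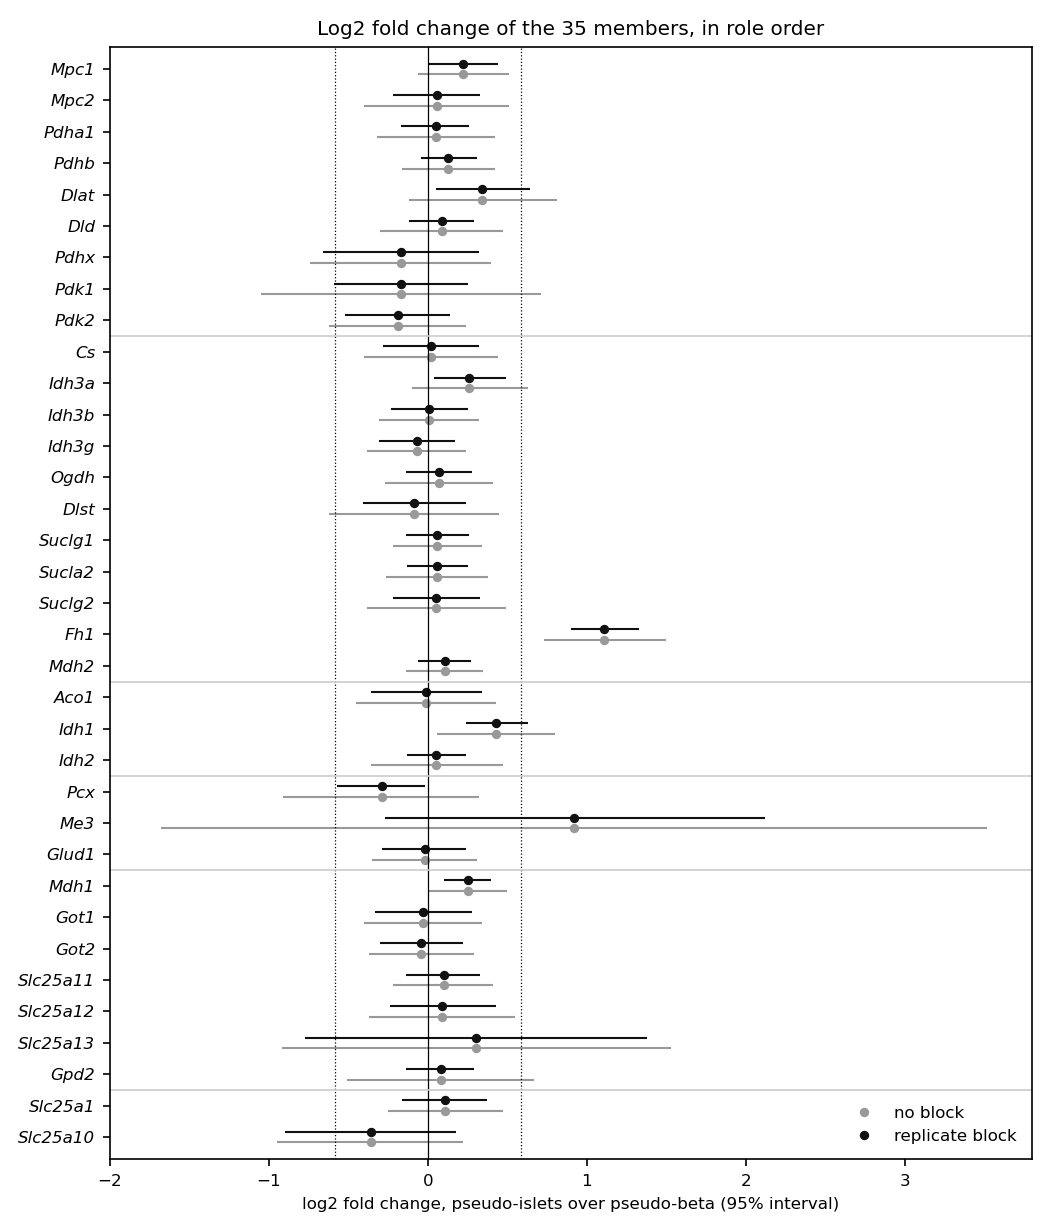
Log2 fold change of each of the 35 genes, pseudo-islets over pseudo-beta, with 95% intervals from limma without a block (grey) and with the replicate block (black), ordered by role, and with dotted lines at a 1.5-fold change. *Fh1* at 1.11 is the only member whose whole interval lies beyond a dotted line, and *Me3* and *Slc25a13* have the widest intervals.

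Apart from *Fh1*, the 10 TCA cycle enzyme genes differed by -0.09 to 0.26 on the log2 scale. *Idh3a*, the catalytic subunit of the NAD-linked isocitrate dehydrogenase, stood at 2349.7, 2539.8 and 1863.7 normalized counts in pseudo-islets against 2175.8, 1801.2 and 1639.7 in pseudo-beta. It was higher in 3 of 3 experiments, but its groups overlapped, and the log2 difference of 0.26 had an adjusted p of 0.353 with the block and 0.976 without. Its partner subunits had log2 differences of 0.01 (95% interval -0.23 to 0.25, with the block) for *Idh3b* and -0.07 (-0.31 to 0.17) for *Idh3g*. *Mdh2*, the mitochondrial malate dehydrogenase that acts on the malate made by fumarate hydratase, stood at 8476.9, 8362.5 and 8438.9 against 8286.7, 8071.1 and 7169.5. The groups did not overlap, yet the log2 difference was 0.11 ± 0.07 (SE, with the block; adjusted p = 0.629), and its interval of 0.962- to 1.20-fold does not reach that of *Fh1*. *Cs*, citrate synthase, which starts the cycle, differed by 0.02 with the block interval from -0.28 to 0.32, and exceeded pseudo-beta in 1 of 3 experiments. The 2-oxoglutarate dehydrogenase genes *Ogdh* and *Dlst* differed by 0.07 and -0.09. The succinyl-CoA synthetase genes *Suclg1*, *Sucla2* and *Suclg2*, which encode the shared alpha subunit and the ATP- and GTP-linked beta subunits, differed by 0.06, 0.06 and 0.05, with intervals with the block inside -0.22 and 0.33. *Suclg2* has a near-identical processed pseudogene, *Gm15163*, whose own counts were 19.4 to 29.8, so an exchange of reads is possible, by an amount that is not known.

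The 9 genes of pyruvate entry and its control had a median log2 difference of 0.06, and none passed the adjusted threshold. *Dlat*, the acetyltransferase core of the pyruvate dehydrogenase complex, was at 1410.4, 1439.6 and 1241.0 normalized counts in the pseudo-islet libraries against 1402.8, 1136.4 and 774.2 in the pseudo-beta libraries. The experiments differed in size, with folds of 1.01, 1.27 and 1.60, and the log2 difference of 0.34 had an adjusted p of 0.347 with the block. The genes of the catalytic subunits, *Pdha1* and *Pdhb*, differed by 0.05 and 0.13, that of the shared lipoamide dehydrogenase, *Dld*, by 0.09, and that of the E3-binding protein, *Pdhx*, by -0.17. *Mpc1*, a subunit of the mitochondrial pyruvate carrier, stood at 3916.7, 4203.5 and 3761.1 against 3385.0, 3058.8 and 3780.7. In experiment 37 the libraries were thus level, and the log2 difference of 0.22 had an adjusted p of 0.411 with the block. *Mpc2*, the other carrier subunit, differed by 0.06, with 1 of 3 experiments higher in pseudo-islets.

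Pyruvate dehydrogenase kinases switch the complex off. *Pdk1* was at 616.5, 1065.8 and 350.3 normalized counts in the pseudo-islet libraries against 995.8, 781.3 and 421.5 in the pseudo-beta libraries, so its direction turned between experiments, and its log2 difference of -0.17 had a block interval from -0.59 to 0.25. *Pdk2* was at 520.0, 416.1 and 409.3 against 553.5, 559.3 and 427.7, lower in pseudo-islets in 3 of 3 experiments, with a log2 difference of -0.19 and an adjusted p of 0.679 with the block. *Mpc1* and *Pdhb* have near-identical processed pseudogenes in the table, *Mpc1-ps* at 248.3 to 299.2 normalized counts and *Gm6123* at 16.5 to 27.3. A further copy of *Mpc1*, *Gm8219*, was not in the table. *Pdha1* shares sequence with the overlapping gene *Map3k15*, at 423.1 to 1150.1. Reads may have been exchanged with these genes, by an amount that is not known.

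*Idh1*, the cytosolic NADP-linked isocitrate dehydrogenase (ENSMUSG00000025950, chr1:65158616-65186500), was second to *Fh1* in p. Its normalized counts were 2974.2, 2611.1 and 2199.4 in the pseudo-islet libraries against 2205.1, 1959.0 and 1611.5 in the pseudo-beta libraries. The groups overlapped, with experiment 37 lowest in both, but within experiments the folds were 1.35, 1.33 and 1.36. The log2 difference was 0.43 in both fits, with a standard error of 0.09 with the block and 0.17 without, and adjusted p-values of 0.0655 and 0.872. It passed with the block when 10 rather than 1 was added to each value (adjusted p = 0.0496), or when genes under 10 in any library were dropped (0.0396), and over all other settings, libraries left out included, its adjusted p lay between 0.0655 and 1.00. *Idh2*, the mitochondrial NADP-linked enzyme, was at 4342.9, 4084.5 and 3179.1 against 4227.1, 4259.4 and 2816.9, a log2 difference of 0.05 (95% interval -0.13 to 0.24, with the block). *Aco1*, the cytosolic aconitase, which makes isocitrate from exported citrate and also acts as an iron-regulatory protein, differed by -0.01 (-0.36 to 0.34).

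The genes of anaplerosis and pyruvate cycling gave different pictures. *Pcx*, pyruvate carboxylase, which feeds oxaloacetate to the cycle, stood at 505.7, 510.0 and 903.9 normalized counts in the pseudo-islet libraries against 620.2, 645.3 and 1074.4 in the pseudo-beta libraries. It was lower in pseudo-islets in 3 of 3 experiments, at 0.815, 0.790 and 0.841 of the pseudo-beta level, and experiment 37 was highest in both groups. The groups overlapped, and the log2 difference of -0.29 had an adjusted p of 0.391 with the block and 0.998 without. *Me3*, the mitochondrial NADP-linked malic enzyme, had 13.9, 76.3 and 78.4 against 1.67, 67.5 and 72.7. Its log2 difference of 0.92 came mostly from experiment 35, where both libraries were low, and the interval with the block ran from 0.827- to 4.34-fold. *Me3* was also the member that fell under 10 normalized counts in a library, and without pseudo-beta of experiment 35 its log2 difference was -0.66. *Glud1*, glutamate dehydrogenase, differed by -0.02 (-0.29 to 0.24 with the block).

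In the shuttles, *Mdh1*, the cytosolic malate dehydrogenase (ENSMUSG00000020321, chr11:21556787-21572367), had the highest counts of all members, at 10990.2, 9996.7 and 9811.2 in the pseudo-islet libraries against 9099.0, 8169.7 and 8647.6 in the pseudo-beta libraries. The groups did not overlap, and the folds were 1.21, 1.22 and 1.13. The log2 difference of 0.25 was small, with an interval with the block from 1.07- to 1.32-fold and adjusted p-values of 0.173 with the block and 0.920 without. *Mdh1* overlaps *Wdpcp* on the opposite strand, a gene at 259.1 to 532.7 normalized counts, far under its own. The aspartate aminotransferase genes *Got1* and *Got2* differed by -0.03 (-0.33 to 0.28 with the block) and -0.04 (-0.30 to 0.22), and *Slc25a11*, the oxoglutarate-malate carrier, by 0.10 (-0.14 to 0.33). *Got2* has a near-identical pseudogene, *Got2-ps1*, at 11.9 to 31.6 normalized counts, and a further near-identical copy, *Gm10874*, that was not in the table. Of the aspartate-glutamate carriers, *Slc25a12* stood at 685.3 to 936.9 in pseudo-islets and 587.1 to 935.1 in pseudo-beta, with a log2 difference of 0.09. *Slc25a13* was at 31.3, 99.5 and 83.4 against 72.6, 76.3 and 24.6, so low and so uneven that its interval with the block, 0.585- to 2.61-fold, leaves its direction undetermined. *Gpd2*, the mitochondrial glycerol phosphate dehydrogenase, was at 7225.3, 6719.0 and 4718.1 against 7470.4, 7201.8 and 3607.9. It was lowest in experiment 37 in both groups, and its log2 difference was 0.08 (-0.14 to 0.29 with the block).

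Of the carriers that export citrate and dicarboxylates, *Slc25a1*, the citrate carrier, stood at 1353.6, 1370.1 and 1306.0 normalized counts in the pseudo-islet libraries against 1533.2, 1176.5 and 1078.8 in the pseudo-beta libraries, a log2 difference of 0.11 (-0.16 to 0.37 with the block). *Slc25a10*, the dicarboxylate carrier, was at 123.6, 116.9 and 123.2 against 192.8, 161.5 and 122.1. Its pseudo-islet libraries were close together and its experiments disagreed, with folds of 0.641, 0.724 and 1.01, and the log2 difference of -0.36 had an adjusted p of 0.621 with the block.

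Levels of different genes were compared as normalized counts per kilobase of the principal transcript. On this scale the members spanned a wide range, from a mean over the 6 libraries of 5586.7 for *Mdh2*, 4454.5 for *Mdh1* and 3845.8 for *Mpc1* down to 69.2 for *Slc25a10*, 20.7 for *Slc25a13* and 11.5 for *Me3*. The libraries of *Mdh2*, at 4924.1 to 5822.0, overlapped those of *Mdh1*, at 3850.0 to 5179.2, and these in turn overlapped those of *Mpc1*, at 3192.9 to 4387.8. *Pdhb*, at 2251.2 to 2886.9, lay under all libraries of *Mpc1*. *Fh1* had 1385.0, 1368.2 and 1633.7 per kilobase in the pseudo-islet libraries against 582.7, 599.1 and 873.3 in the pseudo-beta libraries, so in every library it lay well under *Mdh2*, the next enzyme of the cycle. *Cs*, at 200.9 to 301.1, was lower per kilobase than most other cycle enzymes.

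**Figure D3:**
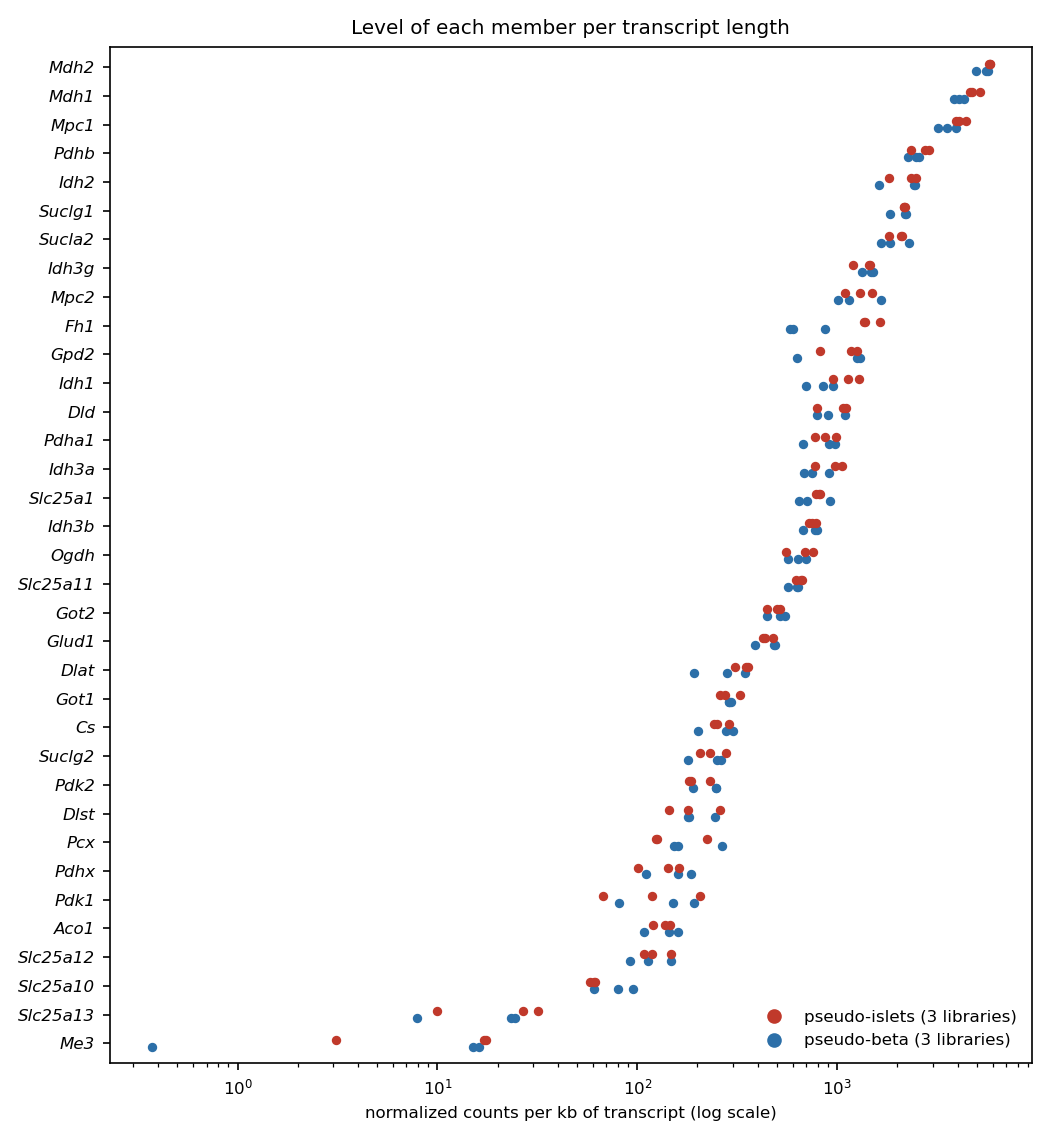
Normalized counts per kilobase of principal transcript (log scale) in each of the 3 pseudo-islet (red) and 3 pseudo-beta (blue) libraries, with genes ordered by their mean from *Mdh2* at 5586.7 to *Me3* at 11.5. The colours lie over each other for most genes and are clearly apart for *Fh1*.

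Ratios of partner genes within a library do not depend on how libraries were scaled. The 9 ratios were chosen after the values had been seen, and an exact permutation test, two-sided, cannot give less than 0.1 with groups of 3. *Idh1* over *Idh2*, cytosolic over mitochondrial enzyme per kilobase, was 0.519, 0.485 and 0.524 in the pseudo-islet libraries against 0.395, 0.349 and 0.434 in the pseudo-beta libraries. These ratios did not overlap and differed by 0.38 on the log2 scale (exact permutation p = 0.1, or 0.45 adjusted over the 9 pairs). *Fh1* over *Mdh2* was 0.238, 0.238 and 0.282 against 0.102, 0.108 and 0.177, a log2 difference of 1.01 with the same p-values. The other 7 ratios overlapped between groups. *Mdh1* over *Mdh2* was 0.798 to 0.890 in pseudo-islets and 0.695 to 0.828 in pseudo-beta. *Pcx* over *Pdha1*, for the carboxylation and the oxidation of pyruvate, was 0.126, 0.144 and 0.287 against 0.167, 0.163 and 0.391, lower in pseudo-islets in 3 of 3 experiments. The ATP-linked *Sucla2* exceeded the GTP-linked *Suclg2* by 7.04- to 9.27-fold in all 6 libraries.

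Many members differed between experiments in the same way in both groups. In experiment 37, both libraries lay below the other 4 for 12 of the 35 genes, or 34.3%, against 15.5% of all genes. These were *Pdhb*, *Pdk1*, *Dld*, *Gpd2*, *Slc25a11*, *Ogdh*, *Sucla2*, *Slc25a12*, *Idh2*, *Pdha1*, *Suclg2* and *Idh3b*. Both lay above the other 4 for *Pcx*, *Dlst* and *Mpc2*, or 8.57% against 16.2% of all genes. The other experiments stood apart for fewer members. Both libraries of experiment 35 lay above the other 4 for *Dld*, *Gpd2*, *Cs* and *Aco1* (11.4% against 9.32% of all genes) and below them for *Me3* (2.86% against 8.38%). Those of experiment 36 lay above for *Suclg2* (2.86% against 6.48%) and below for no member, against 7.0%. The 35 genes together made up 0.442%, 0.418% and 0.371% of a pseudo-islet library in experiments 35, 36 and 37, against 0.426%, 0.405% and 0.346% of a pseudo-beta library. Their share was thus lowest in experiment 37 in both groups and slightly higher in pseudo-islets within each experiment. Without *Fh1* the shares were 0.422%, 0.399% and 0.349% against 0.418%, 0.396% and 0.333%, so in experiments 35 and 36 most of the gap was *Fh1* itself. *Fh1* made up 4.43%, 4.53% and 5.91% of the members' sum in pseudo-islets, against 1.99%, 2.17% and 3.62% in pseudo-beta. Since *Fh1* was highest in experiment 37, it went against the 12 genes that were lowest there. What set experiment 37 apart was not tested.

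**Figure D4:**
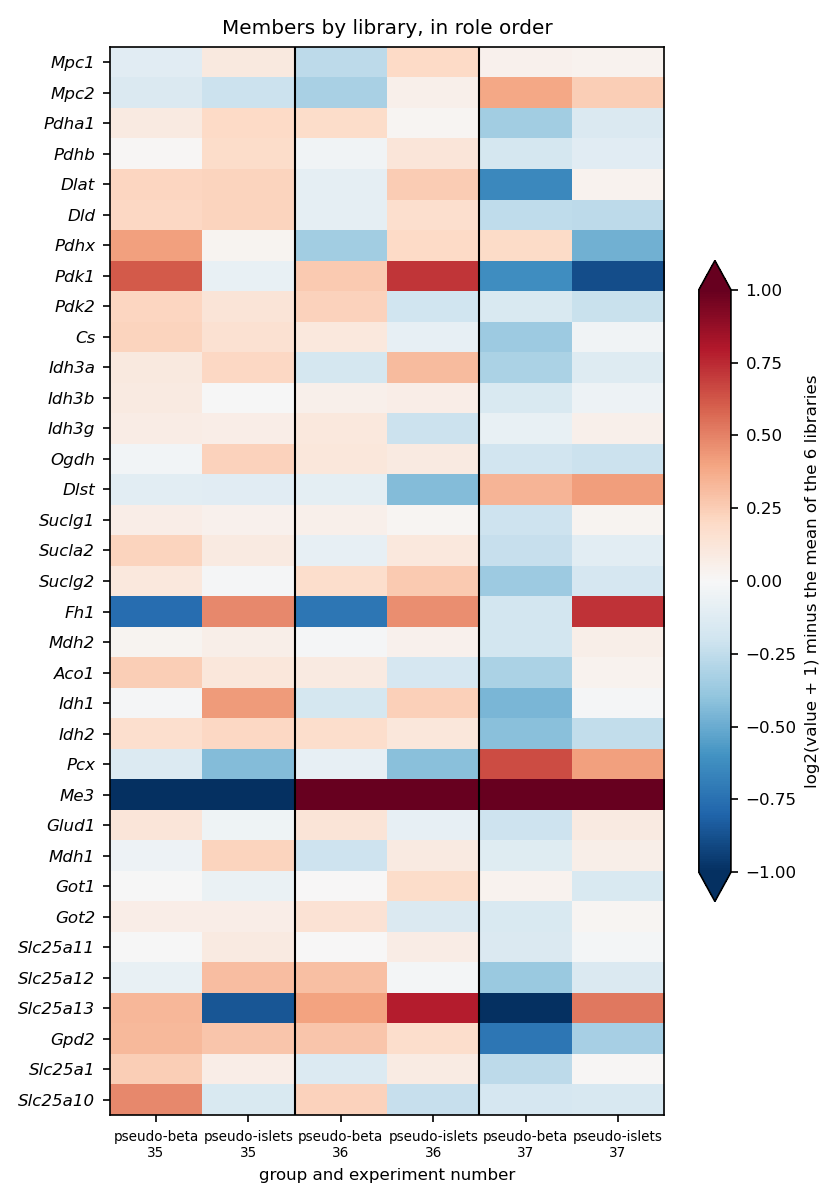
Log2(value + 1) of each member in each library minus its mean over the 6 libraries, with genes in role order and libraries grouped by experiment. *Fh1* changes sign between pseudo-beta and pseudo-islets in each experiment, whereas the columns of experiment 37 are blue for many other members and red for *Pcx*, *Dlst* and *Mpc2*.

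The rest of the pathway was taken from a list of 53 further genes, of which 43 were in the table in 44 entries, *Nnt* having 2 gene identifiers between which its reads may be split. None passed the adjusted threshold in either fit (limma). Without the block none had an unadjusted p under 0.05, and with it *Sdhc*, *Acly* and *Slc25a22* were higher and *Acss2* lower at that level, or 6.82% against 6.69% of all genes and 2.27% against 5.22%. Succinate dehydrogenase makes the fumarate that fumarate hydratase uses. Its subunit genes *Sdha*, *Sdhb*, *Sdhc* and *Sdhd* differed by -0.07, -0.05, 0.27 and 0.10 on the log2 scale, and their intervals with the block, from -0.24 at the lowest to 0.50 at the highest, lie under that of *Fh1*, which starts at 0.90. *Sdhc* was at 1654.1, 1886.7 and 1643.9 normalized counts in the pseudo-islet libraries against 1559.9, 1428.5 and 1308.8 in the pseudo-beta libraries, without overlap (adjusted p = 0.347 with the block).

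Outside the cycle, *Acly*, which splits exported citrate in the cytosol, was at 36384.0, 31504.0 and 23670.2 normalized counts in the pseudo-islet libraries against 31558.2, 31954.3 and 17607.7 in the pseudo-beta libraries. Its groups overlapped, and the log2 difference of 0.20 had an adjusted p of 0.349 with the block. *Slc25a22*, a mitochondrial glutamate carrier, was at 310.8, 225.0 and 245.7 against 176.7, 226.8 and 126.5, a log2 difference of 0.58 (adjusted p = 0.357 with the block). *Acss2*, the cytosolic acetyl-CoA synthetase, was at 575.3, 495.0 and 484.7 against 620.4, 908.7 and 607.7, a log2 difference of -0.44 without overlap (adjusted p = 0.321 with the block).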

How the data were processed

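Per the labels and the study's methods, 5 ng of RNA per library went through the Ovation solo kit with ribosomal RNA depletion, and libraries were read in pairs of 75 bases, aligned to GRCm38 with STAR 2.7.6a and quantified with RSEM 1.3.1. The authors deposited a normalized signal per gene and library, the expected counts of RSEM divided by DESeq2 1.26.0 size factors. In the values, at most 26.8% to 42.9% of low entries were whole multiples of any step, so whole reads were not recovered and the number of reads per library is unknown. The annotation release and the strand setting are not given in the sources used here. The authors' columns of fold changes and p-values were not used.

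From the deposited signal, limma 3.58.1 in R 4.3.3 was fitted to log2(value + 1) over all 13535 genes, 3 libraries against 3, with a prior variance that follows expression and Benjamini-Hochberg adjustment, and genes were called at an adjusted p under 0.05. A log2 difference understates the change of low genes because of the added 1. The methods state no block, so the fit without it was primary. The experiment numbers were checked on deviations of each library from its group mean across genes, which correlated at 0.119, 0.121 and 0.325 within experiments and at -0.203 to 0.0922 between them. All pairs within an experiment exceeded the set minimum of 0.1, so libraries were paired by the numbers of the labels. The fit with the block is given beside the primary one. The check was close for pseudo-islets of experiment 35, at 0.119 with its own partner and 0.0922 with pseudo-beta of experiment 36. The p-values of limma set each group difference against a variance that combines the gene's spread between these libraries with a prior from all genes. The fit was tested on simulated data whose variances were drawn from a prior that follows expression. That test therefore cannot judge the choice of prior.

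All members are named. Of the further pathway genes, those with an unadjusted p under 0.05 in either fit are named, with the *Sdh* subunits, and some items are not reported here. The members and lists were chosen with earlier results of these data known, so lists are described by counts and medians. Gene models are from GENCODE M21, and near-identical copies were found with blastn 2.17.0. Alternatives were the replicate block, scaling that left out the 10 most abundant genes, 10 as the added value, at least 10 normalized counts in every library, a prior variance without trend and each library left out. Combinations of the block with the others were added after seeing the data.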

Additional observations from a re-analysis of the deposited data

How the results depend on the processing

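Of all genes, the fit without the block called 8 and that with it 73. The count was 2 with scaling that left out the 10 most abundant genes, and 2 without the variance trend. Together with the block, that scaling gave 82 calls, adding 10 gave 104, the filter in every library gave 118 and no trend gave 0, with 1136 genes at an unadjusted p under 0.05. Without the block, leaving out 1 library gave 0 to 13 calls, 13 of them without pseudo-beta of experiment 37, 1 without pseudo-beta of experiment 36 and 0 without any other (501 to 794 genes at an unadjusted p under 0.05). With the block, leaving out 1 experiment gave 28, 73 and 45 without experiments 35, 36 and 37, so that all fits with libraries left out span 0 to 73. Among the members, 0 were called without the block, 1 with it and with the block and the scaling, 2 with the block and 10 added or the filter, and 0 to 1 with libraries left out. The call of *Fh1* held with the block whichever experiment was left out, at an adjusted p of 0.000137 to 0.00622, and was lost with the block and no variance trend. The block on its own changed no call of another member, but it brought *Idh1* past the threshold with 10 added (adjusted p = 0.824 without the block and 0.0496 with it) and with the filter in every library (0.928 and 0.0396). The median log2 difference of the members ran from -0.04, without pseudo-beta of experiment 37, to 0.13 with libraries left out, against 0.06.

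The scaling turned 4 members, with and without the block, namely *Pdha1* to -0.01, *Cs* to -0.04, *Idh3b* to -0.05 and *Idh2* to -0.01. A value that rounded to 0.00 was counted as keeping its sign. With libraries left out this applied to *Slc25a1* without the block and to *Sucla2* with it. Of the 35 members, 13 kept their sign under every alternative, among them *Fh1* (1.01 to 1.30 with libraries left out), *Idh1*, *Mdh1* and *Pcx*, and 22 did not. With 1 library left out, the log2 differences of these 22 ran from -0.09 to 0.26 (*Mpc2*), -0.11 to 0.15 (*Pdha1*), -0.02 to 0.24 (*Dld*), -0.39 to 0.03 (*Pdhx*), -0.57 to 0.23 (*Pdk1*), -0.15 to 0.14 (*Cs*), -0.06 to 0.06 (*Idh3b*), -0.12 to 0.02 (*Idh3g*), -0.03 to 0.20 (*Ogdh*), -0.32 to 0.11 (*Dlst*) and -0.03 to 0.11 (*Suclg1*), and from -0.04 to 0.19 (*Sucla2*), -0.12 to 0.16 (*Suclg2*), -0.17 to 0.11 (*Aco1*), -0.15 to 0.19 (*Idh2*), -0.66 to 1.74 (*Me3*), -0.13 to 0.04 (*Glud1*), -0.12 to 0.04 (*Got1*), -0.13 to 0.02 (*Got2*), -0.07 to 0.27 (*Slc25a12*), -0.22 to 0.81 (*Slc25a13*) and -0.26 to 0.27 (*Gpd2*). With the block and 1 experiment left out, *Dld*, *Sucla2* and *Me3* kept their sign, and the others ran from -0.11 to 0.15 (*Mpc2*), -0.03 to 0.15 (*Pdha1*), -0.53 to 0.08 (*Pdhx*), -0.48 to 0.09 (*Pdk1*), -0.13 to 0.13 (*Cs*), -0.04 to 0.06 (*Idh3b*), -0.16 to 0.06 (*Idh3g*), -0.02 to 0.12 (*Ogdh*), -0.17 to 0.04 (*Dlst*) and -0.03 to 0.11 (*Suclg1*), and from -0.02 to 0.14 (*Suclg2*), -0.19 to 0.11 (*Aco1*), -0.01 to 0.11 (*Idh2*), -0.18 to 0.07 (*Glud1*), -0.13 to 0.05 (*Got1*), -0.15 to 0.08 (*Got2*), -0.05 to 0.30 (*Slc25a12*), -0.41 to 1.05 (*Slc25a13*) and -0.07 to 0.17 (*Gpd2*). None of the 22 was called in any fit. The cause of these changes was not tested. Depth per library is not known, and *Me3* and *Slc25a13*, with the fewest counts, have the widest intervals.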
